A study of Pan paniscus with 11 samples.

Results

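The genes described here encode the plasminogen activators PLAU (urokinase) and PLAT (tissue plasminogen activator), the urokinase receptor PLAUR, and the serpins SERPINE2, SERPINB7 and SERPINB2. They were chosen by gene symbol in the probe annotation, with all probe sets of each gene taken. Of the 6 listed genes, 5 were found among the 8226 genes named on the array, with 6 probe sets among 12558 probe sets that are not controls; no probe set named for SERPINB2 in the annotation used here was found, so SERPINB2 was not analysed here. Intensity was measured on a human Affymetrix array in fibroblasts of the bonobo (Pan paniscus), with 1 array per culture. A culture of male line 1 was taken at 50% confluence. The 5 male lines came from animals aged 4, 2, 12, 17 and 19 years (lines 1 to 5), and the 5 female lines from animals aged 9, 2, 4, 20 and 20 years (lines 1 to 5). All animals were labelled normal, and the 10 cultures of these lines were grown and harvested under what the labels call standard conditions. The labels give no genotype, treatment, body site, passage number or standard confluence, and each line is 1 culture of 1 animal, so differences between animals and differences between cultures cannot be told apart.

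Plasmin, the main protease that dissolves fibrin, is made from the circulating zymogen plasminogen by PLAU or PLAT. PLAU acts mostly at the cell surface, where PLAUR, a receptor held by a lipid anchor, binds it, and PLAT acts mostly on fibrin. Plasmin also cleaves matrix proteins and activates latent collagenases. Serpins are inhibitors that trap a protease through an exposed loop and so set how far this system runs. In connective tissue it is known for matrix turnover and for cell migration in wounds.

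The cultures carried fibroblast genes. Of 13 fibroblast markers on the array, 13 were above the floor of 100 in all 11 cultures, with a median intensity of 6203. The median was 100, the floor, for endothelial (6 on the array), keratinocyte (9), monocyte and macrophage (8) and melanocyte (4) markers. SELE, KRT15, ITGAM and TYRP1 were at the floor in all 11 cultures, but other markers of these lists were not. TYR was above it in 6 of 10 lines (100 to 175) and MLANA in 5 of 10 (100 to 220). AIF1 was above it in 5 of 10 (100 to 235). CD14 (100 to 323) and CSF1R (100 to 228) were above it in 4 of 10 each. Over the 10 lines the monocyte and macrophage list summed to 800 to 1167, where 800 is every gene at the floor. The melanocyte list summed to 400 to 585. The keratinocyte sum ran from 1493 to 2576, with SFN (418 to 925), KRT10 (287 to 703) and KRT1 (103 to 301) above the floor in every line. Of the other keratinocyte markers, IVL was above it in 5 of 10 lines (100 to 203) and CDH1 in 4 of 10. DSG3 was above it in 3 of 10 (100 to 219), KRT5 in 2 of 10 and KRT14 in 1 of 10. On the 50% confluence array, the 18S ribosomal RNA control probe sets read 1508 to 2611, against 100 in the standard culture of male line 1. They read 146 to 313 in male line 4, which also had the highest ratio of 3' to 5' ACTB signal (2.27, against 0.853 to 1.44 in the other lines). All values below are deposited intensities on a linear scale. They compare cultures within 1 probe set, since probe sets differ in brightness, and in a bulk culture fewer cells with a transcript and less transcript per cell cannot be told apart.

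Among the proteases, PLAU (probe set 37310_at) read 522, 450, 589, 607 and 859 in male lines 1 to 5, against 862, 181, 407, 188 and 862 in female lines 1 to 5. Male lines lay close together, whereas female lines split into 2 high, 1 middle and 2 low cultures, and the female range covered every male value. PLAU averaged 605 ± 155 in male lines and 500.0 ± 343 in female lines (SD, n = 5 each). Over the 10 lines the highest value was 4.76 times the lowest. The order was female lines 1 and 5 and male line 5 at the top, within 3 units of each other, and female lines 4 and 2 at the bottom; with 1 array per line, no spread within a line is available to separate neighbours.

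PLAT (33452_at) read 643, 455, 227, 452 and 228 in male lines 1 to 5, against 182, 453, 373, 933 and 637 in female lines 1 to 5. The ends of this order were again female lines, with female line 4 highest and female line 1 lowest, the reverse of their standing for PLAU. PLAT averaged 401 ± 176 in male lines and 516 ± 285 in female lines (SD, n = 5 each), and the groups overlapped.

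PLAUR (189_s_at), the receptor gene, read 2094, 972, 862, 480 and 866 in male lines 1 to 5, against 862, 1029, 999, 1982 and 1665 in female lines 1 to 5. Male line 1 and female lines 4 and 5 read 1665 or more, 6 lines lay between 862 and 1029, and male line 4, the line with the highest ACTB ratio, was lowest; whether RNA quality had a part in that value was not tested. PLAUR averaged 1055 ± 610 in male lines and 1307 ± 488 in female lines (SD, n = 5 each). A second PLAUR probe set, 41169_at, was above the floor in 4 of 11 cultures, namely male lines 3 (119) and 5 (271) and female lines 2 (180) and 4 (152). It was at the floor in male line 1, which was highest on 189_s_at, so the 2 probe sets did not rank the lines alike; 41169_at was too dim to be tested.

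Of the inhibitors, SERPINE2 (41246_at), which encodes protease nexin-1, an inhibitor of thrombin, urokinase and tissue plasminogen activator, read 12097, 15724, 16515, 9554 and 14263 in male lines 1 to 5. In female lines 1 to 5 it read 10122, 8505, 12291, 9967 and 17178. It was the most even of the 5 genes, with a highest value 2.02 times the lowest, and averaged 13631 ± 2832 in male lines and 11613 ± 3392 in female lines (SD, n = 5 each). SERPINB7 (35577_at), whose product megsin was first described in kidney mesangial cells, read 312, 877, 354, 306 and 1331 in male lines 1 to 5, against 645, 388, 517, 456 and 1469 in female lines 1 to 5. The eldest male line and 1 of the 2 eldest female lines stood apart at the top, while the other female line from an animal of 20 years read 456. SERPINB7 averaged 636 ± 457 in male lines and 695 ± 443 in female lines (SD, n = 5 each).

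**Figure D1:**
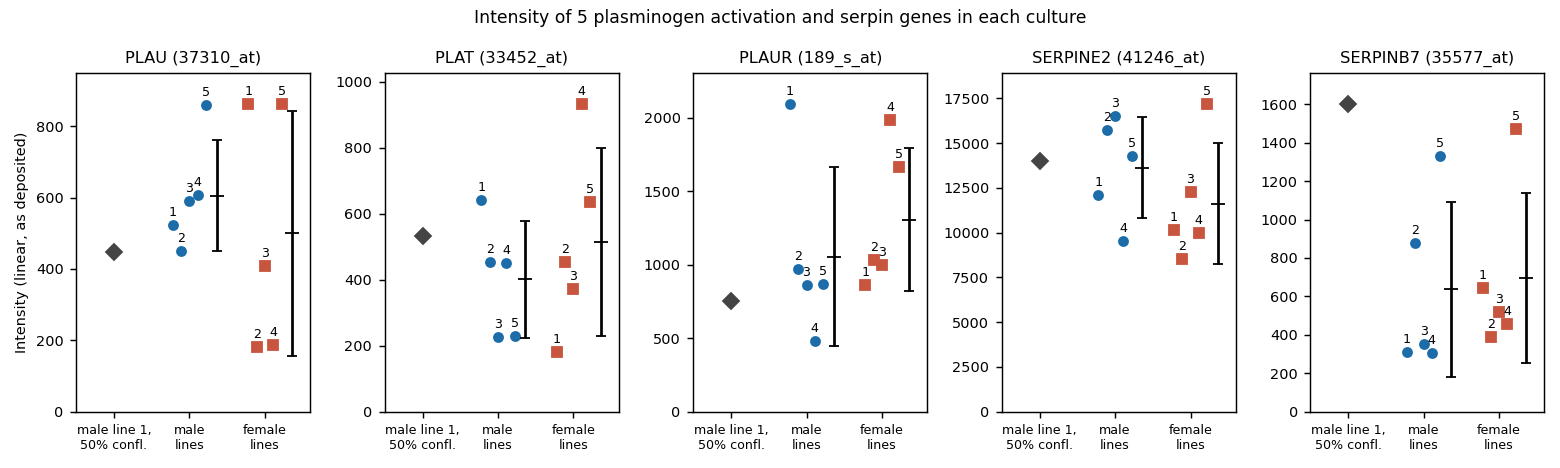
Deposited intensity (linear axis from 0) of PLAU, PLAT, PLAUR, SERPINE2 and SERPINB7 in the 50% confluence culture of male line 1 (diamond), 5 male lines (circles) and 5 female lines (squares), with line numbers; bars give the mean ± SD of each sex. Male and female values overlap for every gene, and SERPINB7 at 50% confluence (1601) lies above all 10 standard lines.

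The spread between lines was described as the SD of log2 intensity. It was 0.83 for SERPINB7, 0.83 for PLAU, 0.76 for PLAT, 0.65 for PLAUR and 0.36 for SERPINE2, against a median of 0.43 over the 7333 probe sets tested. Of those probe sets, 95.4% had a lower SD than SERPINB7 and PLAU, 92.7% a lower SD than PLAT, 86.3% a lower SD than PLAUR and 33.2% a lower SD than SERPINE2. The activators, the receptor and SERPINB7 thus varied more from line to line than most probe sets, and SERPINE2 did not.

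The first comparison asked whether the genes differed between the sexes. None of the 5 tested genes passed (limma with age as a covariate, Benjamini-Hochberg adjusted over 7333 probe sets), and 0 of 5 had an unadjusted p under 0.05. Over all probe sets, 2 passed, which is 0.0273%, and 2.33% had an unadjusted p under 0.05. The largest estimate was that of PLAU, with a male minus female log2 difference of 0.57 ± 0.42 (SE) and a 95% interval of -0.33 to 1.47. PLAUR had -0.40 ± 0.35 (SE), with an interval of -1.15 to 0.35. Estimates for PLAT (-0.28), SERPINE2 (0.25) and SERPINB7 (-0.22) were smaller. The intervals of all genes but SERPINE2 reached past a 2-fold difference, so a difference of that size was not excluded. Single lines moved these estimates: that of PLAU was 0.15 without female line 4 and 0.87 without female line 1, and that of PLAUR was -0.72 without male line 1 and -0.13 without male line 4.

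The second comparison asked whether the genes changed with the age of the animal. None of the 5 passed by limma, with 0 of 5 at an unadjusted p under 0.05, and over all probe sets 0% passed and 3.42% had an unadjusted p under 0.05. The largest slopes were 0.36 ± 0.30 (SE) log2 per 10 years for SERPINB7 (limma unadjusted p = 0.246) and 0.33 ± 0.29 for PLAU, with a 95% interval of -0.29 to 0.95. PLAT (0.11), SERPINE2 (0.08) and PLAUR (0.0030) had slopes closer to 0. Both of the largest slopes moved with single lines, and neither passed with any 1 line left out. The PLAU slope was 0.70 without female line 4, 0.11 without female line 2 and 0.12 without female line 5. The SERPINB7 slope was 0.63 without male line 2, and 0.12 without male line 5 or without female line 5.

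**Figure D2:**
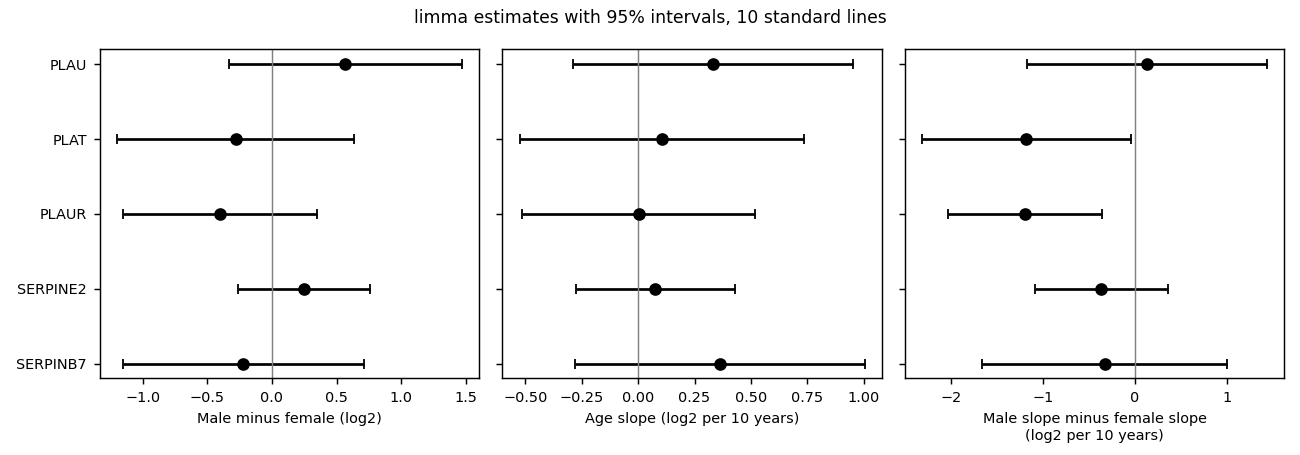
Estimates from limma over the 10 standard lines (points) with 95% intervals (bars) for the male minus female difference (log2), the age slope (log2 per 10 years) and the difference of age slopes, male minus female (log2 per 10 years). The 95% intervals of PLAUR (-2.03 to -0.36) and PLAT (-2.31 to -0.04) in the last panel leave out 0, before any adjustment for the number of probe sets.

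The third comparison asked whether the age slope differed between the sexes. PLAUR read 862 to 2094 in the 3 male lines from animals of 2 to 12 years and 480 and 866 in the male lines from animals of 17 and 19 years. In females it read 862 to 1029 in the 3 lines from animals of 2 to 9 years and 1665 and 1982 in the 2 lines from animals of 20 years. The male age classes overlapped through male lines 3 and 5 alone, and the 2 elder female lines read above the 3 younger ones. How many of all probe sets separate 2 lines from 3 in this way was not counted, so no weight is placed on it. The difference of slopes, male minus female, came to -1.19 ± 0.39 (SE) log2 per 10 years, with an unadjusted p of 0.00827 and an adjusted p of 0.949 by limma, so it did not pass. PLAT had a like estimate of -1.18 ± 0.53 (SE), an unadjusted p of 0.0428 and an adjusted p of 0.973 by limma. PLAT read 227 to 643 in the 3 younger male lines and 228 and 452 in the 2 elder ones, against 182 to 453 in the 3 younger female lines and 637 and 933 in the 2 elder ones.

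Of the 5 genes, 0 passed and 2 had an unadjusted p under 0.05 in this comparison, and of all probe sets 0.0136% passed (1 of 7333) and 4.84% had an unadjusted p under 0.05. Estimates for SERPINE2 (-0.36), SERPINB7 (-0.33) and PLAU (0.13) had intervals that held 0. The PLAUR estimate ran from -1.64 to -0.85 and that of PLAT from -1.51 to -0.89 when each line was left out in turn, male line 4 included. There are 2 lines of 17 years or more in each sex, so this contrast rests on 4 cultures at its upper end.

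**Figure D3:**
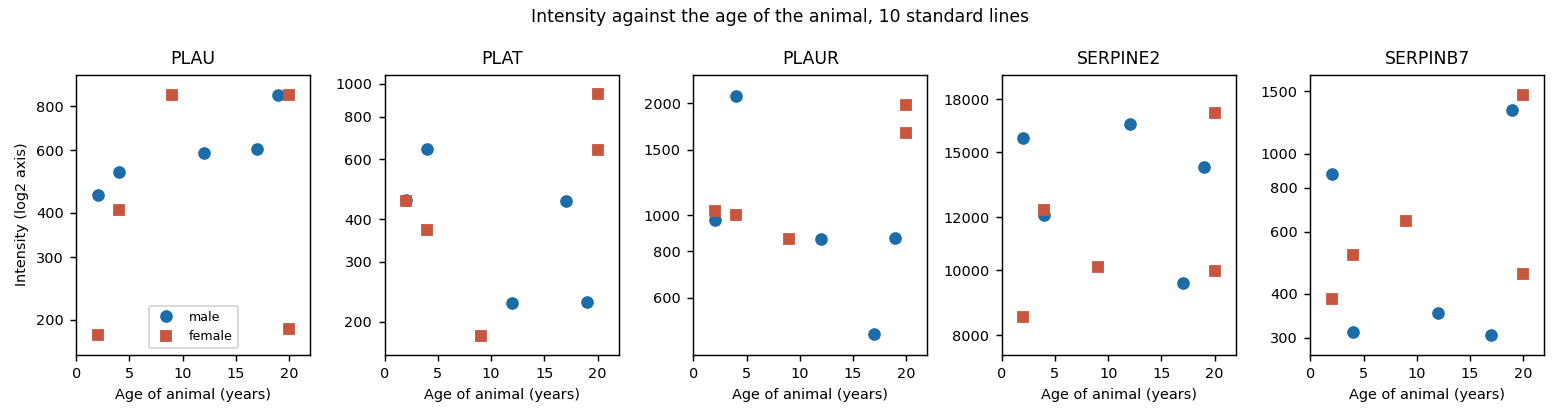
Intensity (log2 axis) of PLAU, PLAT, PLAUR, SERPINE2 and SERPINB7 against the age of the animal in years, for 5 male lines (circles) and 5 female lines (squares). For PLAUR the male lines of 17 and 19 years read 480 and 866, whereas the 2 female lines of 20 years stand high (1665 and 1982), as they do for PLAT (637 and 933).

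How the genes followed each other over the 10 standard lines was then described on the log2 scale for all 10 pairs. PLAT and PLAUR had the highest Pearson's r, 0.64 (permutation p = 0.0491; 0.270 adjusted over the 10 pairs), and a Spearman's rho of 0.81 (permutation p = 0.00604; 0.0604 adjusted), so the pair did not pass the correction on either measure. With median centring of the arrays, rho was 0.85 and passed (permutation p = 0.0293 adjusted over the 10 pairs). Without female lines 1 and 4, the lines farthest from the median of PLAT, r was 0.53. Male line 4 lay off the course of the others, with a PLAT of 452 and the lowest PLAUR. Without it, r was 0.88 over 9 lines, with an exact permutation p of 0.00315 and 0.0315 adjusted over the 10 pairs; that line was singled out after its values had been seen, and it is the one with the highest ACTB ratio.

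PLAU and PLAT had a negative r that did not pass, -0.54 (permutation p = 0.104; 0.270 adjusted over the 10 pairs) and rho = -0.43 (permutation p = 0.222; 0.443 adjusted). Without female lines 2 and 4, the farthest from the median of PLAU, r was -0.35. SERPINE2 and SERPINB7 had r = 0.57 (permutation p = 0.0898; 0.270 adjusted) and rho = 0.56 (permutation p = 0.0951; 0.443 adjusted), with r = 0.36 without female lines 2 and 5 and r = 0.30 under quantile normalization. The other 7 pairs had r between -0.30 and 0.55, and none passed; the highest of these, PLAU with SERPINE2, rested on female lines 2 and 4, since r was 0.02 without them. The lines share 1 array type, and both sexes and all ages are pooled in each r. Within the 5 female lines r was 0.92 for PLAT and PLAUR, against 0.41 within the 5 male lines. For SERPINE2 and SERPINB7 it was 0.91 in females and 0.49 in males, and for PLAU and PLAT -0.52 and -0.67. PLAU and SERPINE2 had 0.67 in females and -0.08 in males.

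**Figure D4:**
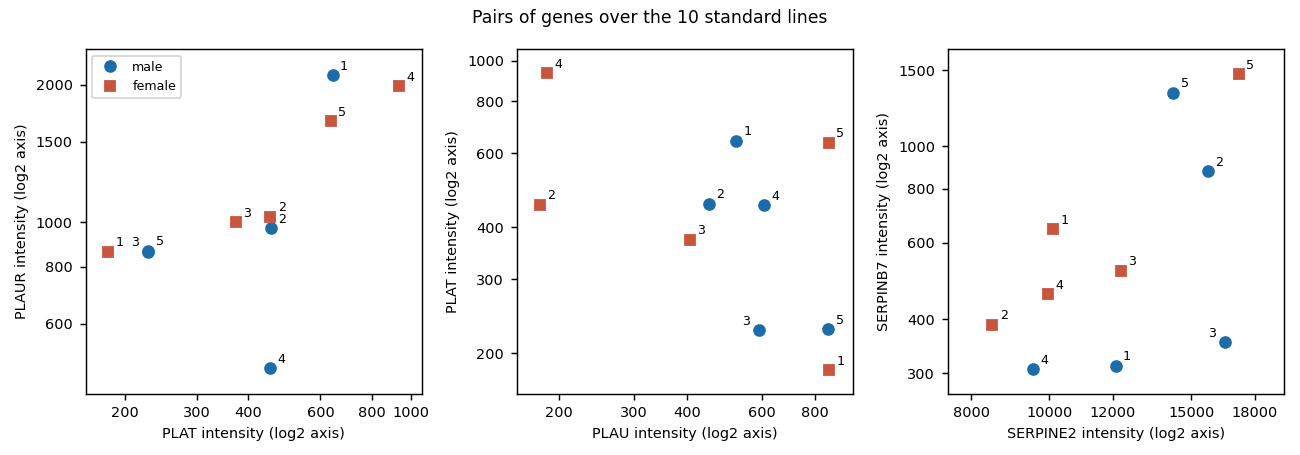
Intensities (log2 axes) of PLAT against PLAUR, PLAU against PLAT and SERPINE2 against SERPINB7 in 5 male lines (circles) and 5 female lines (squares), with line numbers. PLAT and PLAUR have r = 0.64, with male line 4 apart, PLAU and PLAT have r = -0.54, and SERPINE2 and SERPINB7 have r = 0.57; none of these passed after adjustment over the 10 pairs.

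The genes most like each member over the 10 lines were listed by Pearson's r among 5369 others, as a description without a test. For PLAU these were GPRC5A (0.94), an orphan receptor gene induced by retinoic acid, PPOX (0.89), BAZ2B (0.88), the lactadherin gene MFGE8 (0.88) and the G protein subunit gene GNAI2 (0.87). For PLAT they were PRPS1L1 (0.91), SFN (0.88), which encodes 14-3-3 sigma, the squalene epoxidase gene SQLE (0.87), PAFAH1B2 (0.87) and LMO4 (0.86). For PLAUR they were the folate receptor gene FOLR1 (0.92), the fatty acid synthase gene FASN (0.89), SEC24C (0.89), GP2 (0.88) and UBL3 (0.88). For SERPINE2 they were the aldolase gene ALDOC (0.88), CAPN5 (0.87), TBC1D1 (0.84), MYO9B (0.84) and GNRH2 (0.84), and for SERPINB7 the DNA glycosylase gene NTHL1 (0.89), the nuclear receptor gene NR2F6 (0.87), the argininosuccinate synthase gene ASS1 (0.85), SRPK3 (0.85) and CNPY2 (0.83). Many of these were at the floor of 100 in at least 1 line. They include the 3 closest to PLAU, which are GPRC5A (100 to 563), PPOX (100 to 321) and BAZ2B (100 to 280). The others were PRPS1L1 (100 to 250), PAFAH1B2, GP2, UBL3, CAPN5, TBC1D1, GNRH2 (100 to 208) and SRPK3. By contrast, MFGE8 ran from 3807 to 20341. No member stood among the 5 closest to another member.

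The last comparison set the 50% confluence culture of male line 1 against its standard culture, as the labels propose. SERPINB7 read 1601 at 50% confluence and 312 in the standard culture, 5.13-fold higher (log2 difference 2.36). The value at 50% confluence lay above all 10 standard lines (306 to 1469), while the standard culture was the second lowest of them, and 0 of the 45 pairs of standard lines differed by as much. PLAUR went the other way on 189_s_at, with 752 at 50% confluence and 2094 in the standard culture, 2.78-fold lower (log2 difference -1.48). Here the standard culture was the highest of the 10 lines, and the 50% confluence value lay inside their range (480 to 2094), below 9 and above 1 of them; 3 of the 45 pairs of lines differed by more. On 41169_at PLAUR was at the floor in both cultures.

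The other genes differed by less than 2-fold between these cultures. PLAU read 446 at 50% confluence and 522 in the standard culture. PLAT read 533 at 50% confluence against 643 in the standard culture, and SERPINE2 read 14021 at 50% confluence against 12097 in the standard culture. Each 50% confluence value lay inside the range of the standard lines. In all, 2 of 5 genes were over 2-fold apart, against 9.63% of the 6147 probe sets above the floor in both cultures, with 4.88% higher and 4.75% lower at 50% confluence; 10.8% of these probe sets were above all 10 standard lines at 50% confluence, as SERPINB7 was. There was 1 culture per state, so these differences have no replicate check. The 18S control signal of 1508 to 2611 on the 50% confluence array moved with this contrast. So did the ratio of 3' to 5' ACTB signal, which was 0.669 at 50% confluence and 1.42 in the standard culture. The 50% confluence array also had 90 as its lowest deposited value. It read 90 on further probe sets of AIF1, MLANA and TYR where the standard culture read 100. Such values were set to 100 before log2 was taken. The part of any of these differences in the result was not tested. Keratinocyte markers, a concern for SERPINB7 because keratinocytes express it, summed to 1710 at 50% confluence and 1957 in the standard culture, with KRT14 at the floor in both. KRT5 read 132 at 50% confluence and 100, the floor, in the standard culture, and KRT1 read 100 at 50% confluence and 162 in the standard culture. Within that list SFN read 389 at 50% confluence and 785 in the standard culture, and KRT10 read 589 at 50% confluence and 389 in the standard culture. The 13 fibroblast markers summed to 121743 at 50% confluence and 149395 in the standard culture. On the probe set that stood for each gene, 3 were higher and 10 lower at 50% confluence, and 3 were lower by over 2-fold. Of the lower ones, S100A4 (667 at 50% confluence against 322) and P4HB (6330 against 3987) were higher on a further probe set. On further probe sets PDGFRB (2133 against 5548) and COL6A1 (1000 against 1237 and 300 against 304) were lower. COL6A3, a collagen VI gene, read 2025 at 50% confluence and 5452 in the standard culture, and PDGFRB, a growth factor receptor gene, read 2688 at 50% confluence and 6679 in the standard culture. The fibulin gene FBLN1 read 214 at 50% confluence and 622 in the standard culture, but 258 at 50% confluence and 274 in the standard culture on its other probe set. The 50% confluence values of COL6A3 and, on the brighter probe set, FBLN1 lay below the 10 standard lines (2712 to 6080 for COL6A3 and 326 to 1083 for FBLN1). The part of these marker differences in the results for SERPINB7 and PLAUR was not tested.

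**Figure D5:**
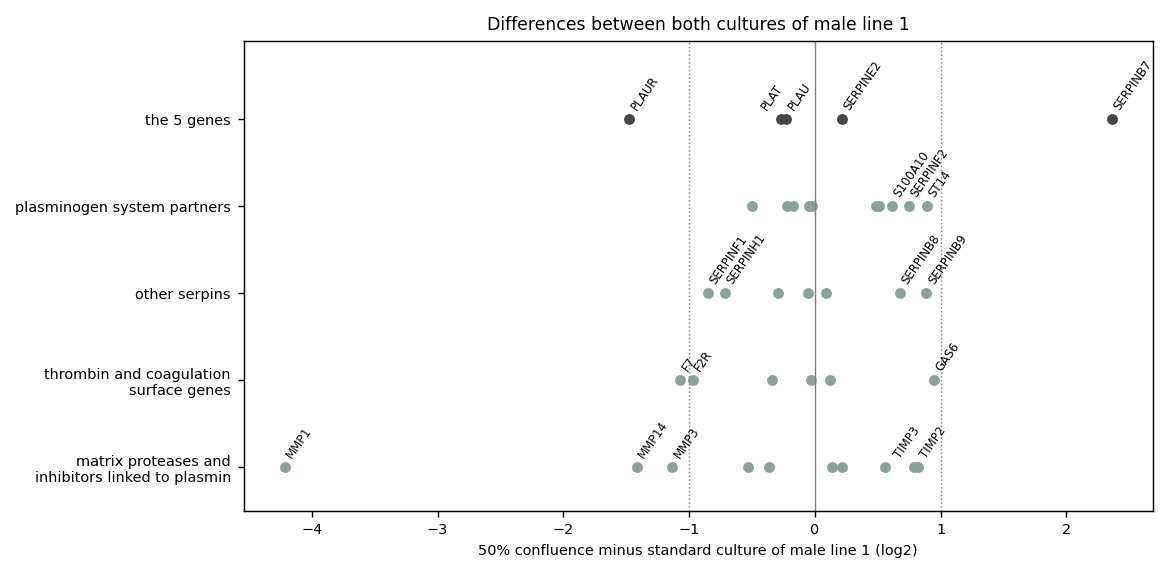
Log2 difference of the 50% confluence culture minus the standard culture of male line 1 for PLAU, PLAT, PLAUR, SERPINE2 and SERPINB7 and for 4 gene lists (points; dotted lines at 2-fold), for genes above the floor in both cultures. SERPINB7 (2.36) is the point farthest to the right and PLAUR (-1.48) the lowest of the 5 genes, with MMP1 (-4.22) farthest to the left.

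The other genes of the plasminogen system were taken from a list of 30 genes, of which 24 had a probe set and 12 could be tested. PLG itself, the plasminogen gene, was at or near the floor (100 to 140), as were the kallikrein gene KLKB1 (100 to 148) and the inhibitor gene SERPINA5 (100 to 112), and the fibrinogen genes FGB and FGG were at the floor in every line. Genes of plasminogen binding and of receptor clearance were mixed. Among the lower ones, the annexin gene ANXA2 ran from 190 to 452 and HRG, which encodes a plasminogen-binding plasma protein, from 100 to 255, while the receptor gene LRP8 was above the floor in 2 of 10 lines (100 to 166) and VLDLR in 0 of 10. Among the brighter ones, ENO1, whose product binds plasminogen, ran from 5865 to 10202, S100A10, a plasminogen-binding partner of annexin A2, from 2172 to 7045, the clearance receptor gene LRP1 from 891 to 3236, its chaperone gene LRPAP1 from 1095 to 2722, and MRC2, which encodes the urokinase receptor associated protein, from 1478 to 2279. SERPINF2, the gene of the plasmin inhibitor antiplasmin, ran from 100 to 422.

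Of the 12 tested, 0 passed by limma for sex (7 higher and 5 lower in males, median log2 0.06), for age (4 positive, 8 negative, median -0.07 per 10 years) or for the difference of slopes (4 positive, 8 negative, median -0.16), where the medians over all probe sets were 0.0032 for sex, -0.0031 for age and 0.0064 for the difference of slopes. The largest estimates were LRP1 for sex (-0.34 ± 0.28, SE) and the mannose 6-phosphate receptor gene IGF2R for age (-0.39 ± 0.23, SE). At 50% confluence, 5 of 11 were higher and 6 lower, 0 of them by 2-fold (median -0.02, against 0.0052 over all 6147). ST14, the gene of the protease matriptase, read 379 at 50% confluence and 204 in the standard culture, and SERPINF2 read 414 at 50% confluence and 247 in the standard culture. MRC2 read 3189 at 50% confluence, above the 10 standard lines (1478 to 2279), and 2279 in the standard culture.

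Other serpins were measured for 18 of 20 listed genes, of which 7 could be tested and 0 passed in any of the 3 limma comparisons. The collagen chaperone gene SERPINH1 ran from 11753 to 25580 over the lines, SERPINF1, which encodes pigment epithelium-derived factor, from 1999 to 12718, and the C1 inhibitor gene SERPING1 from 621 to 8787. For the difference of age slopes 7 of 7 estimates were negative (median -0.30), against 3624 of 7333 over all probe sets, but 2 further SERPINH1 probe sets had positive ones (0.37 and 0.36). Of the 7, SERPINA4 had the largest (-1.01 ± 0.43, SE; limma adjusted p = 0.973). SERPINB7 lies in a row of clade B serpin genes in the bonobo gene table, next to SERPINB2 and near SERPINB10, SERPINB8, SERPINB13 and SERPINB5. Of those with a probe set, SERPINB10, SERPINB13 and SERPINB5 were at the floor in at least 8 of 10 lines and at it in the 50% confluence culture. At 50% confluence 3 of 7 were higher and 4 lower, 0 of them by 2-fold (median -0.05). SERPINF1 read 2199 at 50% confluence and 3961 in the standard culture, and SERPINH1 read 15580 at 50% confluence and 25580 in the standard culture. SERPINB8 read 479 at 50% confluence and 300 in the standard culture, and SERPINB9, an inhibitor of granzyme B encoded elsewhere, read 466 at 50% confluence and 252 in the standard culture. For SERPINB8 and SERPINB9 the 50% confluence values lay above the 10 standard lines (250 to 466 and 218 to 376), as that of SERPINB7 did. The same held for 10.8% of the 6147 probe sets above the floor in both cultures, so it is not particular to these serpins.

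Of 16 coagulation genes, 15 were on the array and 9 were tested, with 0 passing by limma. The lowest unadjusted p was that of the tissue factor gene F3 for age, with an estimate of -0.84 ± 0.27 (SE) log2 per 10 years and an adjusted p of 0.999. At 50% confluence 2 of 6 were higher and 4 lower, and 1 was lower by over 2-fold, the factor VII gene F7 (118 at 50% confluence and 248 in the standard culture). Of all 6147 probe sets above the floor in both cultures, 4.75% were lower by over 2-fold. The thrombin receptor gene F2R read 222 at 50% confluence and 435 in the standard culture, and GAS6, which encodes a ligand of TAM receptors, read 17998 at 50% confluence and 9354 in the standard culture.

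Matrix proteases and their inhibitors linked to plasmin gave 15 genes on the array of 16 listed, 10 of them tested. For the difference of age slopes, 8 of 10 estimates were negative, with a median of -0.65 against 0.0064 over all probe sets, and 1 passed, the collagenase gene MMP1 (-4.53 ± 0.63, SE; limma adjusted p = 0.0458). The stromelysin gene MMP3 had -2.74 (limma adjusted p = 0.949), TIMP3 -1.40 and the membrane protease gene MMP14 -0.83 (both limma adjusted p = 0.973). All 4 were negative, as were PLAUR, PLAT and 3624 of all 7333 probe sets, and these 4 were named for the size of their estimates. No probe set, MMP1 included, passed under 6 of 7 other settings of the fit, nor without any 1 line other than male line 3. At 50% confluence 5 of 10 were higher and 5 lower, 3 of them lower by over 2-fold and 0 higher by as much on the probe set that stood for the gene. Of all 6147 probe sets above the floor in both cultures, 4.75% were lower and 4.88% higher by over 2-fold. MMP1 read 390 at 50% confluence and 7243 in the standard culture, and MMP3 read 109 at 50% confluence and 239 in the standard culture. MMP14 read 1378 at 50% confluence and 3682 in the standard culture, and 348 against 1298 on a further probe set. These 3 protease genes and PLAUR were lower in the same unreplicated pair of cultures, and a link between them was not tested. TIMP2 read 4621 at 50% confluence and 2612 in the standard culture, but 700 against 639 on its other probe set. TIMP3, another inhibitor gene of these proteases, read 13262 at 50% confluence, above all 10 standard lines (960 to 11053), and 7667 in the standard culture. On its other probe set TIMP3 read 10358 at 50% confluence and 4988 in the standard culture, over 2-fold higher (log2 difference 1.05).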

How the data were processed

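Intensities deposited by the authors were used, as 1 whole number on a linear scale for each of 12625 probe sets and 11 cultures; the authors' probe summary and scaling are not given in the sources used here. Low values had been raised to a floor before deposit, to 100 in 9 arrays and to 90 in 2. The 50% confluence array was 1 of those 2. Values were floored at 100 and log2 was taken. Without 67 control probe sets, the 7333 of 12558 above the floor in at least 5 of 11 arrays were tested, and 52.1% to 60.9% lay above it per array. In the annotation (2016), 10943 probe sets carried 1 symbol, 545 carried several and 1070 carried none. Only those with 1 symbol stood for a gene. Since the probes were designed on human transcripts, a mismatch with bonobo RNA can dim a probe set. A bonobo gene table (NHGRI_mPanPan1-v2.0_pri) held 6 of 6 symbols and gave gene order alone.

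Sex and age were fitted jointly over the 10 standard lines, and their product in a further fit, by lmFit and eBayes (trend = TRUE) of limma 3.58.1 under R 4.3.3, Benjamini-Hochberg adjusted over all 7333, threshold 0.05, two-sided. The number of arrays limits the precision. Lines were numbered within each sex in accession order, so numbers pair nothing, and p-values measure the spread between lines. Correlations used 100000 permutations, or all orders where 9 lines were left; they were added after the data had been seen. Named genes were all members, the 5 most alike by Pearson's r and, per list and contrast, up to 4 of largest estimate; other list levels were chosen after their values were seen. A gene with several probe sets was represented by the one of highest mean. The members and lists were chosen with earlier results of these data known. Alternatives were quantile normalization, median centring, a floor of 200, a pseudocount of 50, all probe sets, no intensity trend, array weights, sex or age alone, and leaving out each line. On simulated data of 7333 probe sets, 45% of 100 with a sex difference of 1 log2 and 91% of 100 with 2 log2 were recovered, with 8 false calls. For age slopes of 1 and 2 log2 per 10 years the shares were 73% and 100%, with 5 false calls. The simulated noise was normal and had no floor. Far more probe sets changed there than passed in the data, which loosens the adjusted threshold. The shares can therefore overstate what would be recovered among the members, most of which varied more than the median probe set. The difference of slopes was not simulated.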

Additional observations from a re-analysis of the deposited data

Results flagged for a closer look

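On the second PLAUR probe set, 41169_at, male line 5 (271) stood apart from the other male lines, 3 of which were at the floor and 1 at 119. Its gap to the nearest of them was 0.826 of the male range on the log2 scale. This was 1 of 18 groups of lines examined (males, females and all 10 lines for 6 probe sets), and chance alone can set a line apart in some groups. How often it does so where values are tied at the floor, as here, was not tested. On the brighter PLAUR probe set, 189_s_at, the same line read 866, in the middle of the lines.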

How the results depend on the processing

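No member passed the limma threshold for sex, age or the difference of slopes under any alternative run, and the lowest adjusted p without 1 line was 0.407, for the difference of slopes. Over all probe sets, the count for sex (2) was 1 with a floor of 200, a pseudocount of 50 or no filter, 3 with no intensity trend, array weights or sex alone, and 1 to 2 without 1 line. The count for age (0) was 1 with no filter and 0 without any 1 line. The count for the difference of slopes (1) was 0 with quantile normalization, median centring, a floor of 200, no filter, no intensity trend or array weights, and 0 to 1 without 1 line. Of 115 estimates of members under settings other than leaving out a line, 2 changed sign, both near 0: the PLAUR age slope (-0.0020 with quantile normalization) and the PLAU difference of slopes (-0.066 with array weights). Leaving out 1 line changed the sign of 17 of 150. The sex difference then ran from -0.61 to 0.011 for PLAT (above 0 without female line 4) and from -0.54 to 0.064 for SERPINB7 (above 0 without male line 4 or female line 5). It kept its sign for PLAU (0.15 to 0.87), PLAUR (-0.72 to -0.13) and SERPINE2 (0.14 to 0.41), as did the age slope of PLAU (0.11 to 0.70) and SERPINB7 (0.12 to 0.63). The other age slopes ran from -0.15 to 0.29 for PLAT, from -0.18 to 0.21 for PLAUR and from -0.067 to 0.16 for SERPINE2. The difference of slopes ran from -0.64 to 0.65 for PLAU and from -1.17 to 0.41 for SERPINB7. The cause of these changes was not tested.

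The harvest differences of SERPINB7 (2.19 to 2.36) and PLAUR (-1.52 to -1.42) stayed over 2-fold under quantile normalization, median centring, a floor of 200 and a pseudocount of 50. The r of PLAT and PLAUR was 0.63 to 0.67 under these 4, with an adjusted p above 0.05, and 0.51 to 0.88 without 1 line, passing without male line 4 alone. Their rho passed with median centring (adjusted permutation p = 0.0293), without male line 4 (exact, 0.00882) and without female line 3 (exact, 0.0455). The r of SERPINE2 and SERPINB7 was 0.30 with quantile normalization and 0.41 to 0.79 without 1 line. No pairing of male with female lines was possible because the labels give them no shared numbers. Signal over the floor limits 41169_at, which read 100 in 7 of 11 cultures.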
